A study of Homo sapiens with 12 samples.

Results

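The heterogeneous nuclear ribonucleoproteins (hnRNPs), the serine/arginine-rich (SR) splicing factors and the poly(C)-binding proteins (PCBPs) were followed through knockdown of FOXA1 and of TRIM28 in LNCaP cells, an androgen-sensitive human prostate cancer line. Members were taken by gene symbol from the deposited count tables: symbols that start with HNRNP, symbols made of SRSF and a number, and PCBP1 to PCBP4, without symbols that mark a pseudogene by a P and a number. This gave 42 of 60835 symbols, namely 26 hnRNP, 12 SR and 4 PCBP genes, and left 137 pseudogene symbols out. Of the 42 members, 36 had enough reads to be tested in each knockdown. The 12 libraries, made from poly(A)-selected RNA of cells treated with shRNA, formed 4 groups of 3 biological replicates: FOXA1 knockdown (shRNA-FOXA1) with its own negative control (control shRNA), and TRIM28 knockdown (shRNA-TRIM28) with a separate negative control (control shRNA). The hairpin number per target, the vector and the time after knockdown: these details were not given in the sources used here.

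These proteins bind nascent and mature transcripts. SR proteins carry RNA recognition motifs and an arginine-serine domain, are phosphorylated by CLK and SRPK kinases, and mostly promote the use of nearby splice sites. Many hnRNPs oppose them by binding exonic and intronic silencers, and also serve in transcript packaging, export, translation and stability. PCBPs bind cytosine-rich RNA through KH domains, as does hnRNP K, and PCBP1 and PCBP2 also act as iron chaperones. Transcripts of many SR and hnRNP genes include isoforms with a premature stop codon that are removed by nonsense-mediated decay, through which these proteins limit their own levels. In prostate cancer cells, FOXA1 is a pioneer transcription factor of the luminal program, and TRIM28 silences chromatin at sites where KRAB-type zinc finger factors dock.

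The libraries held between 12256092 and 15152890 counts. FOXA1 stood at 28.6% to 29.2% of the mean of its controls in the FOXA1 knockdown, and TRIM28 at 14.0% to 32.0% in the TRIM28 knockdown, where FOXA1 itself was at 43.0% to 70.1%. The 9 luminal markers examined were detected in every library. Their summed level was 2648 to 2714 CPM in FOXA1 knockdown and 4058 to 4151 CPM in its control. It was 2550 to 2874 CPM in TRIM28 knockdown and 4097 to 4143 CPM in its control. For these markers and those of other cell types, CPM is the read count scaled to the library total alone. For the members and the gene lists below, CPM is also scaled by TMM. Replicate 3 of the TRIM28 knockdown stood apart. A chi-square of its counts, divided by the degrees of freedom, against those of replicates 1 and 2 was 22.6 and 20.4, against 2.94 to 5.73 for the other pairs within groups. The 14 markers of other cell types summed to 269 CPM in that library and to 32.2 to 46.2 CPM in the other 11, with COL1A1 at 130 CPM, COL1A2 at 86.7 CPM, DCN at 24.8 CPM and LUM at 13.2 CPM there, and the leukocyte marker PTPRC at 0.245 CPM, the level of 3 counts. The part of these markers in the results was not tested, and member counts, members called, joint calls and list counts are given with and without this library. In RNA from bulk cells, fewer cells of a kind and less RNA per cell cannot be told apart.

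In control cells hnRNP genes were the most abundant members. FPKM divides a count by a gene length and by the library total. How that length was taken is not given in the sources used here, and the order of genes by FPKM depends on it. HNRNPU held 6.81% of the members' counts in the controls at 63 FPKM, and HNRNPF 4.63% at 203 FPKM. Over the 6 control libraries HNRNPA1, a shuttling hnRNP that represses exons, had 474 ± 13.3 FPKM (SD, n = 6), HNRNPK, a KH-domain hnRNP, 351 ± 15.2 FPKM, and HNRNPA2B1 233 ± 14.4 FPKM. HNRNPF followed at 203 ± 1.63 FPKM. The lowest control library of each of these genes lay above the highest of the next, whereas the next pair in the order, HNRNPC (158 to 172 FPKM) and HNRNPM (148 to 173 FPKM), overlapped. SRSF3, the smallest SR protein, led its family at 126 ± 6.82 FPKM, and the other 10 tested SR genes lay between 16.5 FPKM (SRSF1) and 74.1 FPKM (SRSF9). PCBP2 had 36.9 ± 4.02 FPKM, PCBP4 8.46 ± 0.685 FPKM, PCBP1 3.57 ± 1.01 FPKM and PCBP3 0.291 ± 0.0459 FPKM, and no pair of these overlapped. For PCBP1, 52.2% of the exon bases overlap exons of the antisense gene PCBP1-AS1, and the part of this overlap in its level was not tested. The 6 members without a test were at or near 0: HNRNPA1L2, HNRNPCL1, HNRNPCL3 and HNRNPCL4 had 0 counts in all 12 libraries, HNRNPCL2 had 1, and SRSF12 had 18, of which 11 were in replicate 3 of the TRIM28 knockdown.

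**Figure D1:**
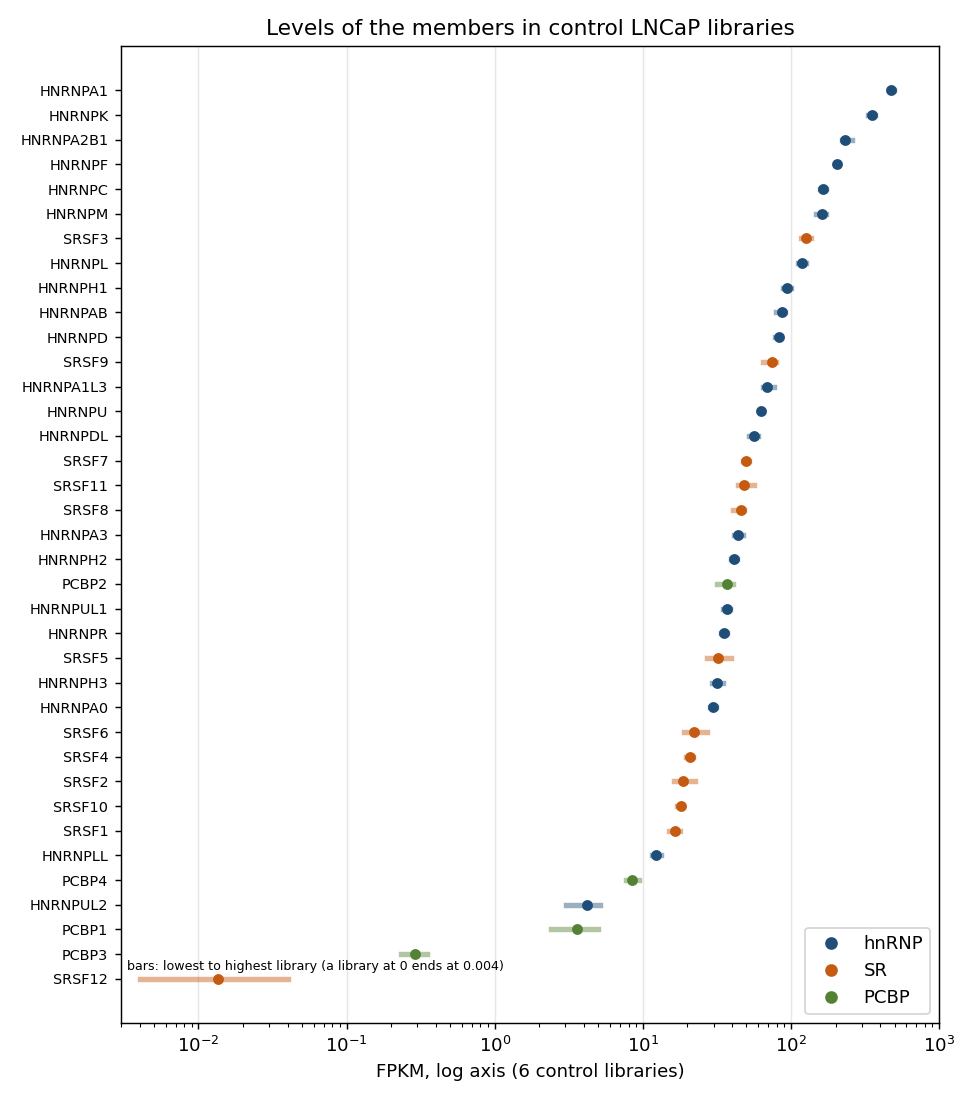
Levels of the 37 members with at least 1 count in a control library, as FPKM on a log axis. Points are means of the 6 control libraries and bars run from the lowest to the highest library; HNRNPA1 is at the top at 474 FPKM and SRSF12 at the bottom at 0.0135 FPKM.

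All 42 members together took 1.04% to 1.11% of the counts in FOXA1 knockdown libraries, against 1.2% to 1.26% in their controls, and 0.946% to 1.11% in TRIM28 knockdown libraries, against 1.19% to 1.2% in their controls. The groups of each comparison did not overlap. HNRNPA1 alone held 16.1% of the members' counts in the controls and HNRNPA2B1 12.9%. Without HNRNPA1 the share was 0.900% to 0.954% in FOXA1 knockdown and 0.998% to 1.05% in its control, and 0.829% to 0.952% in TRIM28 knockdown and 0.978% to 0.994% in its control, again with no overlap.

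Knockdown of FOXA1 was read for members whose levels changed with it. Of 36 tested members, 26 changed, 11 upward and 15 downward (edgeR's quasi-likelihood test, adjusted p under 0.05 by Benjamini-Hochberg over all tested genes). Over all 14953 tested genes, 52.4% changed, 26.1% upward and 26.3% downward. The median log2 fold change was -0.06 over the members and -0.02 over all tested genes. Most changes were small: 4 members were called and at least 1.5-fold changed, against 20.5% of all genes, and 2 at least 2-fold, against 9.33%. By class, 5 SR genes rose and 4 fell of 11, 5 hnRNP genes rose and 9 fell of 21, and 1 PCBP gene rose and 2 fell of 4.

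Knockdown of TRIM28 was read in the same way. Of the 36 tested members, 18 changed, 5 upward and 13 downward, against 26.7% of 14981 genes, 13.3% upward and 13.3% downward. The median log2 fold change was -0.18 over the members and 0.00224 over all tested genes. Among members, 6 were called and at least 1.5-fold changed, against 12.6% of all genes, and 1 at least 2-fold, against 4.53%. No SR gene rose and 4 fell of 11, 4 hnRNP genes rose and 7 fell of 21, and 1 PCBP gene rose and 2 fell of 4. With library size alone as the scaling, 6 members rose and 9 fell, and the share of all calls that were upward was 63.4% in place of 49.9%. Leaving out 1 library moved the count of called members widely: to 7, 6 or 9 without control replicate 1, 2 or 3, to 13 or 8 without knockdown replicate 1 or 2, and to 27 without knockdown replicate 3. The count of all genes called moved as well, from 3993 to between 1877 and 6867.

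**Figure D2:**
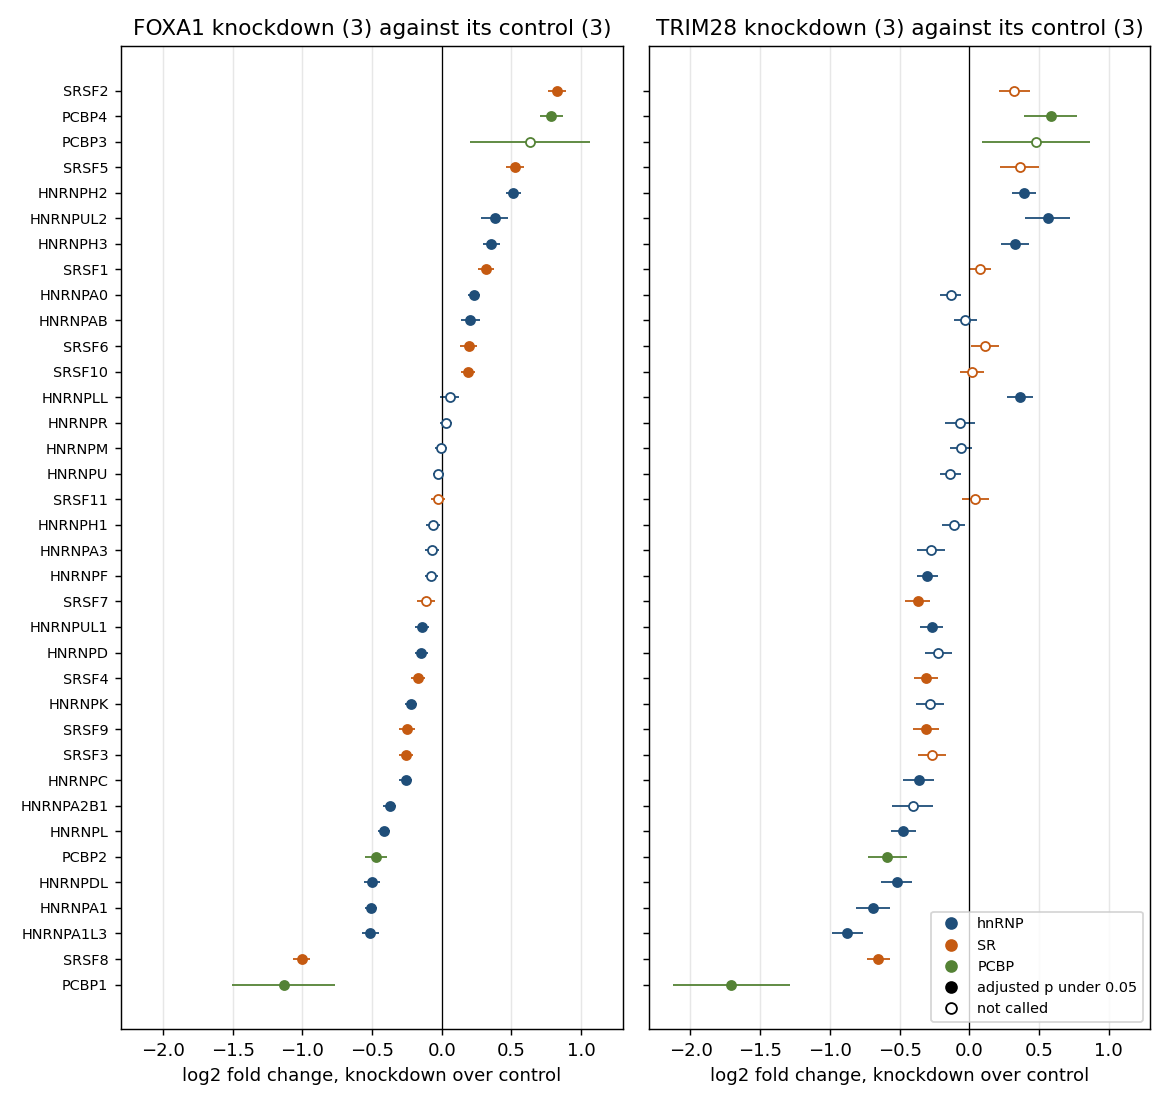
Log2 fold change (knockdown over control) of the 36 tested members in the FOXA1 knockdown (left) and the TRIM28 knockdown (right), with whiskers of 1 SE and 3 libraries per group. Filled points passed an adjusted p of 0.05; members are sorted by the FOXA1 knockdown, and PCBP1 and SRSF8 lie lowest there, at -1.13 and -1.005.

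Of the 4 PCBP genes, PCBP1 and PCBP2 fell and PCBP4 rose in both knockdowns. PCBP1 (ENSG00000169564, GRCh38 chromosome 2, 70087477 to 70089203, plus strand) encodes an RNA-binding regulator of splicing and translation and a chaperone that delivers iron to ferritin. It is a single-exon gene with the retrogene tag of GENCODE 29, and its coding sequence is 83.5% identical to that of the multi-exon gene PCBP2. The longest run of their coding sequences without a difference is 33 bases. The first 90 coding bases of both genes are shown because counts of such close relatives rest on the bases in which they differ. Capitals mark the 14 differing positions; the PCBP2 stretch spans an intron.
PCBP1, chr2:70087744-70087833, plus strand, GRCh38: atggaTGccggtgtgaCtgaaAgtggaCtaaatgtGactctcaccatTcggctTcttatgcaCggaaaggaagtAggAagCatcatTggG
PCBP2, chr12:53454801-53455367, plus strand, GRCh38: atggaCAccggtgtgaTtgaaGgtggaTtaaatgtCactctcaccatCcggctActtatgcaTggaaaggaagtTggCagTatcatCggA

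PCBP1 had 1.39, 3.81 and 3.70 CPM in FOXA1 knockdown libraries, against 8.70, 6.22 and 4.41 CPM in their controls. These stood for 21, 51 and 53 counts in the knockdown and 121, 93 and 58 counts in the control. All 3 knockdown libraries lay below all 3 controls, and PCBP1 fell by 1.13 on the log2 scale (SE 0.37, adjusted p = 0.0305 by edgeR). In TRIM28 knockdown libraries PCBP1 had 3.16, 0.787 and 1.62 CPM, against 7.42, 6.62 and 4.28 CPM in their controls. The groups again did not overlap, and PCBP1 fell by 1.71 (SE 0.42, adjusted p = 0.0163). The gene had only 712 counts in all 12 libraries. The call in the FOXA1 knockdown was lost without control replicate 2 (-1.16, adjusted p = 0.072) or with all 12 libraries in 1 fit (adjusted p = 0.0539). In the TRIM28 knockdown it was lost without control replicate 1 (-1.54, adjusted p = 0.0754) or 2 (-1.65, adjusted p = 0.0676). Of the exon bases of PCBP1, 52.2% overlap exons of the antisense gene PCBP1-AS1, and reads of the 2 genes cannot be told apart if counting did not use strand, which is not given in the sources used here. PCBP1-AS1 itself had a log2 fold change of -0.20 (adjusted p = 0.121) in FOXA1 knockdown and 0.07 (adjusted p = 0.726) in TRIM28 knockdown.

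PCBP2 (ENSG00000197111, chromosome 12, 53452102 to 53481162, plus strand), which stabilises transcripts and shares the iron chaperone role, had 78.2, 81.1 and 87.7 CPM in FOXA1 knockdown, against 111, 101 and 131 CPM in its control. Its levels in TRIM28 knockdown were 69.4, 76.4 and 101 CPM, against 128, 133 and 108 CPM in its control. No knockdown library of either pair reached its controls, and replicate 3 of the TRIM28 knockdown came nearest. PCBP2 fell by 0.47 in FOXA1 knockdown (SE 0.079, adjusted p = 9.88e-05) and by 0.59 in TRIM28 knockdown (SE 0.14, adjusted p = 0.0137). The call in the TRIM28 knockdown rested on several libraries: the adjusted p was 0.0655 without control replicate 1, 0.0716 without control replicate 2 and 0.0582 without knockdown replicate 2, and without knockdown replicate 3 the fall was 0.76 (adjusted p = 3.67e-09). Exons of MAP3K12 on the opposite strand cover 18.8% of the exon bases of PCBP2. MAP3K12 rose by 0.47 in FOXA1 knockdown (adjusted p = 0.0028 by edgeR) and by 0.52 in TRIM28 knockdown (adjusted p = 0.034). Its part in the PCBP2 counts was not tested.

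PCBP4 (ENSG00000090097, chromosome 3, 51957454 to 51974016, minus strand), described as a p53-induced gene that restrains the cell cycle, moved the other way. Its levels were 38.1, 36.9 and 38.8 CPM in FOXA1 knockdown, against 22.6, 23.1 and 20.1 CPM in its control. The knockdown libraries were all higher, and PCBP4 rose by 0.79 (SE 0.085, adjusted p = 6.27e-09). In TRIM28 knockdown it had 44.0, 33.9 and 24.8 CPM, against 20.2, 23.0 and 25.4 CPM in its control. There replicate 3 lay among the controls, so the groups overlapped. The rise of 0.59 (SE 0.19, adjusted p = 0.0486) was not called without any 1 of the other 5 libraries (adjusted p = 0.0843 to 0.168), and without knockdown replicate 3 it was 0.77 (adjusted p = 1.38e-06). PCBP3 had 0.925, 1.27 and 0.838 CPM in FOXA1 knockdown and 0.647, 0.535 and 0.760 CPM in its control, and 0.903, 0.944 and 1.14 CPM in TRIM28 knockdown and 0.793, 0.752 and 0.576 CPM in its control. Its knockdown libraries were higher in each pair, at 7 to 17 counts per library, but it did not pass the test (adjusted p = 0.215 and 0.393). PCBP3 passed the filter on low counts only through its knockdown libraries and was not tested between the control groups. No rise is read from this separation.

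**Figure D3:**
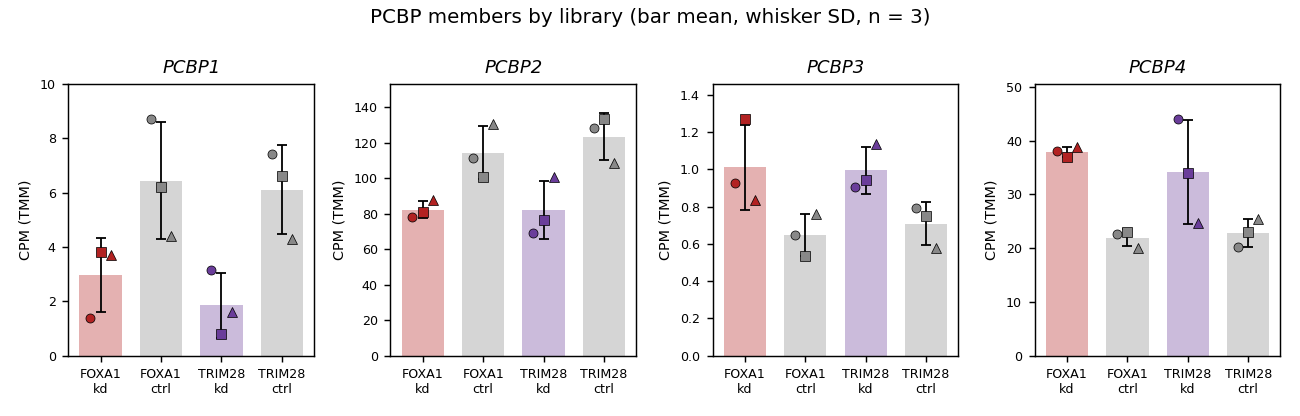
CPM (TMM-scaled) of the 4 PCBP genes in every library; bars are means, whiskers 1 SD, n = 3, and circles, squares and triangles are replicates 1, 2 and 3. PCBP1 and PCBP2 are lower in each knockdown (kd) than in its control (ctrl), while PCBP4 is higher, with 1 TRIM28 knockdown library at 24.8 CPM among the controls.

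Among SR genes the largest changes were in 2 close relatives that moved in opposite directions in the FOXA1 knockdown. SRSF2 (ENSG00000161547, chromosome 17, 76734115 to 76737333, minus strand) encodes SC35, a splicing activator of nuclear speckles that is mutated in myeloid neoplasms. SRSF8 (ENSG00000263465, chromosome 11, 95066919 to 95071225, plus strand) is an intronless relative with the retrogene tag, and the coding sequences are 84.7% identical over the aligned bases. The longest run without a difference is 34 bases. Their first 90 coding bases are set side by side, with capitals at the 10 positions that differ, since both genes were counted in the same libraries.
SRSF8, chr11:95067227-95067316, plus strand, GRCh38: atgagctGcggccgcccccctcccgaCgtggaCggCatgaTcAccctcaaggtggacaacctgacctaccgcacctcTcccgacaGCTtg
SRSF2, chr17:76737071-76737160, minus strand, GRCh38: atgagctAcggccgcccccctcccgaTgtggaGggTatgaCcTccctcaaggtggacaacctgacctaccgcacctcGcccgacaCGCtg

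SRSF8 had 99.8, 98.0 and 95.2 CPM in FOXA1 knockdown, against 202, 210 and 177 CPM in its control. TRIM28 knockdown libraries had 141, 132 and 128 CPM, against 201, 216 and 214 CPM in its control. All knockdown libraries lay well below their controls, replicate 3 of the TRIM28 knockdown included. SRSF8 had a log2 fold change of -1.005 in FOXA1 knockdown (SE 0.058, adjusted p = 1.95e-14) and fell by 0.65 in TRIM28 knockdown (SE 0.081, adjusted p = 0.000737). SRSF2 had 92.1, 86.8 and 101 CPM in FOXA1 knockdown, against 50.5, 51.6 and 55.9 CPM in its control. The groups were apart, and SRSF2 rose by 0.83 (SE 0.067, adjusted p = 1.75e-11). In TRIM28 knockdown SRSF2 had 66.4, 71.9 and 74.5 CPM, against 65.1, 49.4 and 55.7 CPM in its control. These did not overlap, but control replicate 1 came close to the lowest knockdown library, and the log2 fold change of 0.32 did not pass the test (SE 0.11, adjusted p = 0.0578). It passed without control replicate 1 (0.43, adjusted p = 0.0444), without knockdown replicate 3 (0.28, adjusted p = 0.0185) or with all 12 libraries in 1 fit (adjusted p = 0.0194). Exons of MFSD11 on the opposite strand cover 36.7% of the exon bases of SRSF2. MFSD11 had log2 fold changes of -0.06 (adjusted p = 0.608) in FOXA1 knockdown and -0.34 (adjusted p = 0.0604) in TRIM28 knockdown.

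SRSF5, also known as SRp40, had 138, 127 and 138 CPM in FOXA1 knockdown, against 82.9, 93.7 and 103 CPM in its control. It rose by 0.53 (SE 0.064, adjusted p = 9.31e-08). In TRIM28 knockdown SRSF5 had 137, 159 and 112 CPM, against 120, 90.2 and 107 CPM in its control. Replicate 3 lay between the controls, and the log2 fold change of 0.36 was not called (SE 0.14, adjusted p = 0.082). Without that replicate it was 0.48 and was called (adjusted p = 0.0124). Other SR genes that rose in FOXA1 knockdown were SRSF1 (log2 fold change 0.32), the prototype of the family, SRSF6 (0.19) and SRSF10 (0.19), a splicing repressor when dephosphorylated. The remaining falls there were SRSF3 (-0.25), SRSF9 (-0.25) and SRSF4 (-0.17), while SRSF7 (-0.11, adjusted p = 0.145) and SRSF11 (-0.03, adjusted p = 0.683) were not called. The call of SRSF6 was lost without control replicate 1 or knockdown replicate 3 and that of SRSF4 without knockdown replicate 2, and SRSF7 was called without knockdown replicate 1 (adjusted p = 0.044). In TRIM28 knockdown SRSF7 (-0.37), SRSF4 (-0.31) and SRSF9 (-0.31) fell with SRSF8. All 3 calls were lost without control replicate 1 or 2 or knockdown replicate 2. Exons of GATC on the opposite strand cover 46.2% of the exon bases of SRSF9. GATC had log2 fold changes of 0.04 (adjusted p = 0.741) in FOXA1 knockdown and -0.01 (adjusted p = 0.955) in TRIM28 knockdown. DYNLL1, also on the opposite strand, and NRAV, on the same strand, overlap the deposited span of SRSF9 too. DYNLL1 rose by 0.91 in FOXA1 knockdown (adjusted p = 1.15e-14 by edgeR) and by 0.49 in TRIM28 knockdown (adjusted p = 0.00684). NRAV rose by 0.58 (adjusted p = 0.000114) and 0.83 (adjusted p = 0.00327). The part of these genes in the SRSF9 counts was not tested. For SRSF1, 56.6% of the exon bases are shared with another annotated gene on the same strand, which had 0 counts.

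Of the hnRNP A/B genes, HNRNPA1 and its copy HNRNPA1L3 fell in both knockdowns. HNRNPA1 (ENSG00000135486, chromosome 12, 54280193 to 54287088, plus strand) had 1468, 1330 and 1382 CPM in FOXA1 knockdown, against 1926, 1955 and 2066 CPM in its control. In TRIM28 knockdown it had 1067, 1161 and 1473 CPM, against 1890, 2043 and 2048 CPM in its control. No knockdown library reached its controls. HNRNPA1 fell by 0.51 in FOXA1 knockdown (SE 0.044, adjusted p = 7.41e-11) and by 0.69 in TRIM28 knockdown (SE 0.12, adjusted p = 0.0026). HNRNPA2B1, which binds transport elements and m6A-marked RNA, had 1337, 1193 and 1295 CPM in FOXA1 knockdown against 1610, 1597 and 1747 CPM in its control, a fall of 0.37 (SE 0.047, adjusted p = 1.11e-07). In TRIM28 knockdown it had 926, 1066 and 1468 CPM, against 1501, 1558 and 1527 CPM in its control. Its replicate 3 was just below the lowest control, and the log2 fold change of -0.41 was not called (adjusted p = 0.0681), whereas without that replicate it was -0.62 and called (adjusted p = 2.71e-09). HNRNPA3 was not called in FOXA1 knockdown (-0.07, adjusted p = 0.285) or in TRIM28 knockdown (-0.27, adjusted p = 0.071). HNRNPAB rose in FOXA1 knockdown (0.21, adjusted p = 0.0218) with overlapping groups, a call lost without control replicate 1 or 3 or knockdown replicate 1 or 3, and had -0.03 in TRIM28 knockdown (adjusted p = 0.823).

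HNRNPA1L3 (ENSG00000224578, chromosome 16, 51553436 to 51647132, plus strand), which GENCODE 29 lists as HNRNPA1P48 with the retrogene tag, is a copy of HNRNPA1 with 99.3% identity over 825 aligned coding bases. The longest run without a difference is 373 bases, so reads can match both genes, and its counts are uncertain. A stretch of 90 bases is shown in which the genes differ at 1 position, in capitals.
HNRNPA1L3, chr16:51645953-51646042, plus strand, GRCh38: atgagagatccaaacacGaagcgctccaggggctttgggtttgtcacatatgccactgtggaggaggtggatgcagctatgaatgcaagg
HNRNPA1, chr12:54281798-54281887, plus strand, GRCh38: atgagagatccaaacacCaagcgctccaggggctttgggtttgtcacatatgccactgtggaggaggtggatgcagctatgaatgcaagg

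HNRNPA1L3 had 93.5, 91.4 and 97.1 CPM in FOXA1 knockdown, against 128, 126 and 149 CPM in its control, and fell by 0.51 (SE 0.061, adjusted p = 3.91e-08). In TRIM28 knockdown it had 65.4, 71.7 and 88.5 CPM, against 136, 139 and 138 CPM in its control, and fell by 0.87 (SE 0.11, adjusted p = 8e-04). Its count was 6.01% to 6.17% of that of HNRNPA1 in TRIM28 knockdown, 6.36% to 7.03% in FOXA1 knockdown and 6.44% to 7.20% in the control libraries. The 74 annotated pseudogenes of HNRNPA1, which are no members, summed to 5.62% of the HNRNPA1 count in FOXA1 knockdown and 5.47% in its control, and to 5.66% in TRIM28 knockdown and 5.75% in its control.

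Further hnRNP genes fell in both knockdowns. HNRNPDL, a relative of the AU-rich element binding protein AUF1, had 178, 156 and 181 CPM in FOXA1 knockdown, against 240, 228 and 260 CPM in its control. The TRIM28 knockdown libraries had 161, 174 and 214 CPM, against 261, 270 and 256 CPM in its control. The groups were apart in both pairs, with falls of 0.50 (SE 0.058, adjusted p = 7.84e-08) and 0.52 (SE 0.11, adjusted p = 0.00624). HNRNPL, which binds CA repeats, fell by 0.41 in FOXA1 knockdown and by 0.47 in TRIM28 knockdown. HNRNPC, which packages nascent transcripts, fell by 0.26 and 0.36, and HNRNPUL1 by 0.14 and 0.27. In TRIM28 knockdown the calls of HNRNPC and HNRNPUL1 were each lost without any 1 of 5 libraries, and were kept without knockdown replicate 3. HNRNPK (-0.22) and HNRNPD (-0.15), which encodes AUF1, fell in FOXA1 knockdown and had -0.28 (adjusted p = 0.0578) and -0.22 (adjusted p = 0.11) in TRIM28 knockdown. HNRNPF, which binds G-rich sequences, fell in TRIM28 knockdown (-0.30, lost without control replicate 2 or 3 or knockdown replicate 1 or 2) and had -0.07 in FOXA1 knockdown (adjusted p = 0.164). In FOXA1 knockdown the call of HNRNPUL1 was lost without control replicate 1 or 2 or knockdown replicate 2 or 3, and that of HNRNPD without knockdown replicate 2. With library size alone as the scaling, HNRNPC and HNRNPUL1 were not called in TRIM28 knockdown, nor were SRSF4 and SRSF9.

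The G-run binding paralogs HNRNPH2 and HNRNPH3 rose, as did HNRNPUL2. HNRNPH2 (ENSG00000126945, chromosome X, 101408222 to 101414133, plus strand), whose coding sequence is 87.6% identical to that of HNRNPH1, had 139, 141 and 131 CPM in FOXA1 knockdown, against 93.6, 98.0 and 96.5 CPM in its control. HNRNPH2 in TRIM28 knockdown had 121, 135 and 124 CPM, against 90.4, 97.1 and 102 CPM in its control. Every knockdown library was higher, by 0.51 on the log2 scale in FOXA1 knockdown (SE 0.054, adjusted p = 3.94e-09) and by 0.39 in TRIM28 knockdown (SE 0.088, adjusted p = 0.00916, and 0.054 without control replicate 1). HNRNPH1, the more abundant relative, had -0.06 (adjusted p = 0.298) in FOXA1 knockdown and -0.11 (adjusted p = 0.352) in TRIM28 knockdown. HNRNPH3 rose by 0.36 in FOXA1 knockdown and by 0.33 in TRIM28 knockdown; the call in the TRIM28 knockdown was lost without control replicate 1, 2 or 3 or knockdown replicate 2. HNRNPUL2, which takes part in DNA end resection, had 29.7, 29.5 and 34.3 CPM in FOXA1 knockdown, against 24.1, 20.9 and 27.0 CPM in its control, a rise of 0.38 (SE 0.097, adjusted p = 0.00152). Levels in TRIM28 knockdown were 27.0, 35.4 and 27.9 CPM, against 21.9, 22.8 and 16.4 CPM in its control. The groups did not overlap, and the rise of 0.56 (SE 0.16, adjusted p = 0.0243) was lost without control replicate 1 (adjusted p = 0.0685), 2 (0.053) or 3 (0.0983) or knockdown replicate 2 (0.101). Of its exon bases, 44.1% are shared with the readthrough gene HNRNPUL2-BSCL2, which had 0 counts. HNRNPLL, a regulator of CD45 splicing in lymphocytes, rose in TRIM28 knockdown (0.36, adjusted p = 0.017, lost without control replicate 1, 2 or 3) and had 0.06 in FOXA1 knockdown (adjusted p = 0.503).

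Several abundant members did not change detectably. HNRNPU, a nuclear scaffold protein, had -0.02 in FOXA1 knockdown (SE 0.042) and -0.14 in TRIM28 knockdown (SE 0.077, adjusted p = 0.669 and 0.214). HNRNPM, a regulator of alternative splicing in epithelial cells, had -0.003 (SE 0.043, adjusted p = 0.958) and -0.06 (SE 0.078, adjusted p = 0.61). HNRNPR had 0.03 (adjusted p = 0.583) and -0.07 (adjusted p = 0.691). Between the control groups, edgeR called 0 of 35 tested members and 0 of 14839 genes. At an unadjusted p under 0.05 there were 7 members and 635 genes, and DESeq2 also called 0.

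**Figure D4:**
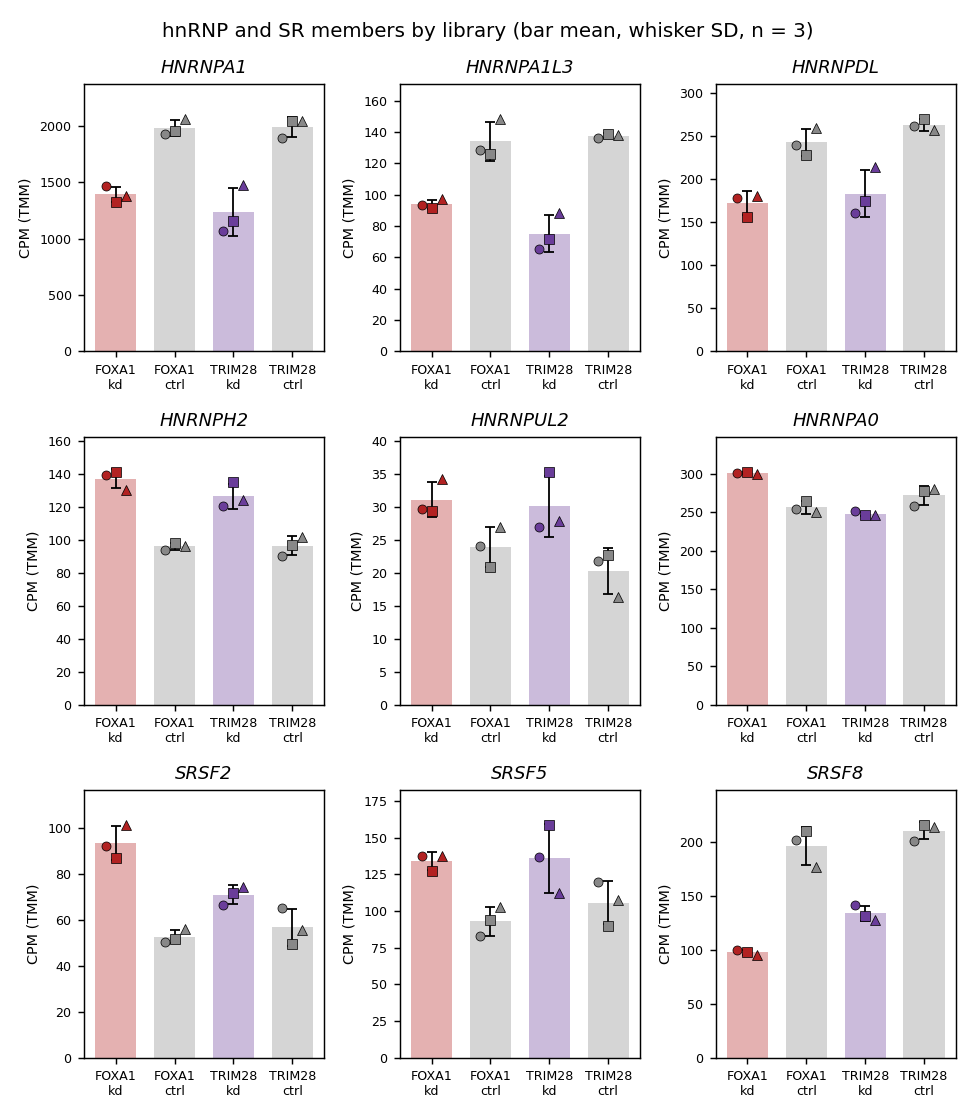
CPM (TMM-scaled) of 9 hnRNP and SR genes in every library; bars are means, whiskers 1 SD, n = 3, and circles, squares and triangles are replicates 1, 2 and 3. HNRNPA1, HNRNPA1L3, HNRNPDL and SRSF8 are lower in each knockdown (kd) than in its control (ctrl), and HNRNPH2 and HNRNPUL2 are higher.

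The knockdowns had separate control libraries, so their calls could be set side by side. Of the 36 members, 11 (30.6%) were lower in both knockdowns, against 10.1% of 14498 genes tested in both. These were HNRNPA1, HNRNPA1L3, HNRNPC, HNRNPDL, HNRNPL, HNRNPUL1, SRSF4, SRSF8, SRSF9, PCBP1 and PCBP2. Higher in both were 4 (11.1%), against 9.80% of genes: HNRNPH2, HNRNPH3, HNRNPUL2 and PCBP4. No member was called in opposite directions, and 0.531% and 0.352% of genes were. These counts moved with single libraries of the TRIM28 pair. Without any 1 of its other 5 libraries, 5 to 8 members were lower in both and 1 to 3 higher in both. The shares of genes then moved as well, to 4.86% to 7.52% lower in both and 5.32% to 7.5% higher in both. Without knockdown replicate 3 there were 15 lower and 6 higher, against 15.9% and 14.2% of genes. Leaving out 1 library of the FOXA1 pair gave 9 to 12 lower and 4 higher, against 9.24% to 10.2% and 9.22% to 9.57% of genes. With library size alone as the scaling, 7 members were lower in both (7.81% of genes) and 5 higher (12.1%). FOXA1 was itself lower in TRIM28 knockdown (log2 fold change -0.90, SE 0.17, adjusted p = 0.0055). TRIM28 in turn fell by 0.19 in FOXA1 knockdown (SE 0.05, adjusted p = 0.00221), to 86.9% to 89.4% of its control. The part of either in the shared calls was not tested.

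The difference between the effects, TRIM28 knockdown minus FOXA1 knockdown, was tested over all 12 libraries. It was called for 3 of 36 members, against 10.6% of 15921 genes. HNRNPA0 and SRSF2 had the lower value in TRIM28 knockdown (5.98% of genes) and SRSF8 the higher (4.59%). HNRNPA0, a stress-responsive AU-rich element binding protein, had 252, 247 and 247 CPM in TRIM28 knockdown, against 258, 278 and 281 CPM in its control, and 301, 303 and 299 CPM in FOXA1 knockdown, against 254, 266 and 250 CPM in its control. It had -0.13 in TRIM28 knockdown (adjusted p = 0.224) and rose by 0.23 in FOXA1 knockdown (adjusted p = 9.36e-05), and the effects differed by -0.37 (SE 0.079, adjusted p = 0.00535). For SRSF2 the difference was -0.52 (SE 0.14, adjusted p = 0.0227) and for SRSF8 0.34 (SE 0.099, adjusted p = 0.0348). The call of SRSF2 was lost without control replicate 1 or 2 or knockdown replicate 3 of the FOXA1 pair or control replicate 1 of the TRIM28 pair, and that of SRSF8 without any 1 of 9 libraries. For PCBP1 the difference was -0.59 with an SE of 0.63 (adjusted p = 0.617).

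Replicate 3 of the TRIM28 knockdown was the knockdown library nearest to the control mean for 20 of 36 members, replicate 1 for 11 and replicate 2 for 5, and it was the farthest for 9. Over all 14981 tested genes it was the nearest for 42.6% and the farthest for 35.4%. It had the lowest TRIM28 level of the group (14.0% of control) and the highest FOXA1 level (70.1%), and the collagen transcripts given above. Without it 27 members changed, 7 upward and 20 downward, against 45.8% of genes, 21.9% upward and 23.9% downward, and the median over members was -0.24. The members called in addition were HNRNPA2B1, HNRNPA3, HNRNPD, HNRNPH1, HNRNPK, HNRNPR and SRSF3, which fell, and SRSF2 and SRSF5, which rose. The difference between the effects was then called for 13 members, 12 of them lower and 1 higher, against 22.5% of genes, 13.2% lower and 9.28% higher. HNRNPA1 was among these, at -0.34 (SE 0.075, adjusted p = 0.000545).

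The wider splicing machinery was read from 5 gene lists, whose counts stand against the shares of all genes given above. Of 40 core spliceosome genes, 6 rose and 19 fell in FOXA1 knockdown (median log2 fold change -0.18) and none rose and 18 fell in TRIM28 knockdown (median -0.25). The Sm protein gene SNRPB fell by 0.46 in FOXA1 knockdown and by 0.76 in TRIM28 knockdown, to 71.7 ± 4.1 CPM against 122 ± 8.4 CPM in its control. SNRPB2, of the U2 particle, fell by 0.66 and SNRNP40, of the U5 particle, by 0.48 in FOXA1 knockdown, and the falls in TRIM28 knockdown included SNRPA, the U1 protein A (-1.06), and PRPF31 (-0.79). Of 30 SR kinases, import factors and SR-related genes, 6 rose and 13 fell in FOXA1 knockdown, and 3 rose and 5 fell in TRIM28 knockdown. CLK1, a kinase of SR proteins, had 60.1 ± 2.9 CPM in FOXA1 knockdown and 126 ± 13 CPM in its control (-1.07, adjusted p = 2.23e-13, n = 3 each). CLK3 fell by 0.50 in TRIM28 knockdown, and TNPO1, the importin that carries hnRNP A1 into the nucleus, rose by 0.40 there. THRAP3 fell by 0.72 in FOXA1 knockdown and by 0.59 in TRIM28 knockdown, and RSRC2 by 0.61 in FOXA1 knockdown. Without replicate 3 of the TRIM28 knockdown, 1 core spliceosome gene rose and 32 fell, and 4 genes of the SR kinase list rose and 13 fell. SNRPB2 (-0.44), SNRNP40 (-0.34), CLK1 (-1.23) and RSRC2 (-0.58) were called in TRIM28 knockdown without this replicate. They were named above for FOXA1 knockdown alone because only up to 3 genes with the smallest p are named per list and knockdown. Their values in TRIM28 knockdown with all libraries are not given here.

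Of 39 tested regulators of other families, 7 rose and 22 fell in FOXA1 knockdown, and 5 rose and 11 fell in TRIM28 knockdown. MSI2, a translation regulator, rose by 0.76, and MBNL3 (-1.15) and YBX3 (-0.61) fell in FOXA1 knockdown. PTBP1, the polypyrimidine tract-binding protein, fell by 0.66, DAZAP1 by 0.64 and RBMX by 0.52 in TRIM28 knockdown. Nonsense-mediated decay genes were split: of 19, 7 rose and 6 fell in FOXA1 knockdown, and 4 rose and 3 fell in TRIM28 knockdown. The helicase gene UPF1 rose by 0.61 and RBM8A, of the exon junction complex, by 1.27 in FOXA1 knockdown. The kinase gene SMG1 rose by 0.56 and the endonuclease gene SMG6 by 0.79 in TRIM28 knockdown. RUVBL1 fell by 0.58 in FOXA1 knockdown and by 0.41 in TRIM28 knockdown. Of 8 tested iron-handling partners of PCBP1 and PCBP2, 3 rose and 3 fell in FOXA1 knockdown, and 1 rose and 1 fell in TRIM28 knockdown. HMOX1, heme oxygenase, had 209 ± 30 CPM in FOXA1 knockdown and 70.9 ± 2.7 CPM in its control, and 250 ± 120 CPM in TRIM28 knockdown and 81.1 ± 9.4 CPM in its control (adjusted p = 1.33e-06 and 0.0368). The glutaredoxin gene GLRX3 fell by 0.39 in FOXA1 knockdown and by 0.46 in TRIM28 knockdown. NCOA4, the ferritin autophagy receptor, fell by 0.19 in FOXA1 knockdown and had -0.38 in TRIM28 knockdown (adjusted p = 0.131). Without replicate 3 of the TRIM28 knockdown, 9 other regulators rose and 15 fell, 4 decay genes rose and 6 fell, and 2 iron-handling genes rose and 2 fell. Some genes were named above for FOXA1 knockdown alone because of the limit of up to 3 names per list and knockdown. Their values in TRIM28 knockdown with all libraries are not given here. Those called in TRIM28 knockdown without replicate 3 were MSI2 (0.525), MBNL3 (-0.469), YBX3 (-0.185), UPF1 (0.473) and RBM8A (1.069). HMOX1 then had a log2 fold change of 1.97 (SE 0.071, adjusted p = 7.88e-22), against 1.625 (SE 0.41) with all libraries, and NCOA4 one of -0.625 (adjusted p = 1.86e-09).

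Gene structure was read beside direction as a description. Of the 36 tested, PCBP1, SRSF8, HNRNPA1L3, HNRNPF, HNRNPH2 and HNRNPA0 carry the retrogene tag in GENCODE 29. In FOXA1 knockdown 3 of these fell, 2 rose and 1 was not called, and in TRIM28 knockdown 4 fell, 1 rose and 1 was not called. An annotated transcript subject to nonsense-mediated decay was present in 13 of 15 members that fell, 6 of 11 that rose and 7 of 10 not called in FOXA1 knockdown. In TRIM28 knockdown it was present in 10 of 13 that fell, 2 of 5 that rose and 14 of 18 not called, and in 16 of 20 that fell, 4 of 7 that rose and 6 of 9 not called without replicate 3. The retrogenes then stood at 4 that fell, 1 that rose and 1 not called.

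Promoter windows of RefSeq (GRCh38.p14, 250 bases before to 50 after a start site) were found for 37 of the 42 members, 53 windows in all. HNRNPA1, HNRNPA1L3, HNRNPCL3, PCBP3 and SRSF2 had no window, so the search does not cover them. The forkhead core motif TGTTTAC was searched on both strands and was in 0 of 53 windows, against 3.42% of 35116 windows of all genes. TGTTTGC was in 1 window (1.89%), that of HNRNPH3, against 3.89%. The shorter TGTTTA, which is contained in the first motif, was in 2 windows (3.77%), both of SRSF8, against 12.3%. A match describes letters in these windows only. Of the SRSF8 windows 1 is shown, cut at 20 bases after the start site, with its 2 matches in capitals.
SRSF8 promoter, chr11:95066627-95066896, plus strand, GRCh38.p14: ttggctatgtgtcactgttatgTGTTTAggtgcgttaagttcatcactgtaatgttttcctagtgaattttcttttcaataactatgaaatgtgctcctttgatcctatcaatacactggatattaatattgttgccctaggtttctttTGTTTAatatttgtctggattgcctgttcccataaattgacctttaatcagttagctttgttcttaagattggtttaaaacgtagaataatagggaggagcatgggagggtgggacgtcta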

How the data were processed

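Poly(A) RNA of 12 LNCaP libraries was sequenced, per the labels' protocols. The authors deposited 2 tables of raw counts by gene symbol, 1 for each pair of groups, and FPKM for every library in a further table. Coordinates are on GRCh38 (hg38), per the submitters' processing notes. For aligner, counter, strand setting and annotation release the entry is: not given in the sources used here. The count tables have 62710 lines and 60835 symbols; a symbol repeated on several lines carried the same values and was kept once. Control groups follow the titles and knockdown groups the treatment labels, since genotype labels of some replicates name other gene numbers. Titles of the knockdown libraries themselves read SH control, and their column headers start with SI, whereas their treatment labels name shRNA.

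Counts were tested with edgeR 4.0.16 in R 4.3.3 (TMM, filterByExpr with minimum count 10 and minimum total 15, robust quasi-likelihood F-tests, two-sided), with Benjamini-Hochberg adjustment over all tested genes at 0.05, per knockdown with its control. A gene passed the filter if 3 libraries reached about 10 counts. A chi-square test of counts found no pair of replicates within sampling noise. Alternatives used DESeq2 1.42.0, limma 3.58.1 on log2(FPKM + 1) or log2(FPKM + 0.1), other scalings, no filter, a fold of 1.2, all 12 libraries, a replicate block, and each library left out with the same genes tested. Values in every library are given for the PCBP genes, the 8 called members with the largest change per knockdown and those called for the difference. HNRNPA2B1 was added after its values were seen. For each list up to 3 genes with the smallest p are named per knockdown. The members, lists and tests were chosen with earlier results of these data known. Annotation is GENCODE 29, promoter windows are RefSeq.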

Additional observations from a re-analysis of the deposited data

Results flagged for a closer look

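The effects of the knockdowns differed, by a test of the difference itself, for 3 of 36 members (8.33%), a share below the 10.6% of 15921 genes called in the same test. The difference in log2 fold change, TRIM28 knockdown minus FOXA1 knockdown, was -0.374 for HNRNPA0 (SE 0.079, adjusted p = 0.00535 by edgeR), -0.518 for SRSF2 (SE 0.14, adjusted p = 0.0227) and 0.342 for SRSF8 (SE 0.099, adjusted p = 0.0348). For HNRNPA0 all 3 TRIM28 knockdown libraries lay below their controls and all 3 FOXA1 knockdown libraries above theirs. SRSF8 was lower in all knockdown libraries of both pairs, with the smaller fall in TRIM28 knockdown. The calls of SRSF2 and SRSF8 were lost without single libraries, as given above.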

How the results depend on the processing

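In the FOXA1 knockdown, 26 called members became 23 to 26 without 1 library (7028 to 7568 genes), and 11 (4 higher, 7 lower; 4305 genes) against a fold of 1.2. In the TRIM28 knockdown, 18 became 6 to 27 without 1 library (1 to 7 higher, 5 to 20 lower, 1877 to 6867 genes), and 6 (0 higher, 6 lower; 1625 genes) against a fold of 1.2. For the difference between the effects, 3 became 1 to 13 without 1 library (0 to 1 higher, 1 to 12 lower, 1199 to 3583 genes), with 2 higher under library size alone and 0 higher with no filter on low counts. The share of difference calls that were higher was 43.4% with TMM and 60.0% with library size alone. Between the controls, 0 to 1 genes were called without 1 library. For the joint calls, added after the data were seen, 11 members lower in both knockdowns became 5 to 15 and 4 higher in both became 1 to 6 without 1 library. The shares of genes were then 4.86% to 15.9% lower in both and 5.32% to 14.2% higher in both. Under library size alone 7 members were lower (7.81% of genes), and with the replicate block 2 were higher (9.3% of genes). Against a fold of 1.2, 5 were lower (3.21% of genes) and 0 higher (3.75%). No called fold change of a member changed sign within a knockdown; among members not called, HNRNPM, HNRNPU and SRSF11 did in the FOXA1 knockdown, and HNRNPAB, HNRNPM, HNRNPR (-0.205 to 0.02), SRSF10 and SRSF11 in the TRIM28 knockdown. Same-numbered libraries did not deviate together (correlations of -0.0352, 0.0218 and 0.14 in the FOXA1 pair and of 0.0479, -0.0821 and 0.0269 in the TRIM28 pair), so the numbers were not taken as pairs. With the replicate block, 25 members were called in the FOXA1 knockdown, and 18 in the TRIM28 knockdown, 3 of them higher; PCBP1 in the FOXA1 knockdown (adjusted p = 0.113) and PCBP4 in the TRIM28 knockdown (0.0687) were not called. With limma on FPKM, PCBP1 in the FOXA1 knockdown had adjusted p = 0.0509 (log2(FPKM + 1)) and 0.0682 (log2(FPKM + 0.1)). The cause of these shifts was not tested. PCBP1 and PCBP3 are limited by few counts, 712 and 136 in all 12 libraries.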
